A study of Physcomitrium patens with 24 samples.

Results

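The comparison described here set the 2 libraries of protonemata held at 37 °C for 6 h against the 2 libraries of protonemata kept at 24 °C and harvested at the same time point. These 4 libraries belong to a series of 24, made from Physcomitrella patens (also named Physcomitrium patens), strain Gransden, with 2 biological replicates of each of 12 groups at 24, 30 or 37 °C for 1, 6, 12 or 24 h. Protonemata are the filamentous juvenile stage of this moss, and all groups were grown on PpNH4 medium at 24 °C before heating, with 24 °C as the control temperature. Messenger RNA was selected by its poly(A) tail and sequenced, and the deposited values are read counts for 32926 genes. Of these, 21429 genes with a CPM (the reads of a gene per 1000000 counts of its library) above 0.5 in at least 2 libraries were tested, and the comparison covered all of them. A gene was called up-regulated or down-regulated when its Benjamini-Hochberg adjusted p was under 0.05 in edgeR's quasi-likelihood test and its log2 fold change was at least 1 in size. Log2 fold changes stand with ± their standard error (SE), with 2 libraries a group throughout. The labels do not say whether the replicates were separate cultures, so a p-value measures the spread between these samples. In extracts of a whole tissue, fewer cells of one type and less RNA per cell cannot be told apart.

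Heat unfolds proteins, and plant cells answer with the heat shock response. Heat shock factors (HSFs), transcription factors that are held inactive in unstressed cells, bind heat shock elements in promoters and raise the transcripts of chaperones. The paper raises the possibility that class B members of the family, such as Hsf2B of Arabidopsis, repress the response instead. Small heat shock proteins of the HSP20 family keep unfolding proteins soluble, HSP70 and HSP90 refold them with their co-chaperones, Clp ATPases of the HSP100 class pull them out of aggregates, and chaperonins enclose them while they fold. In mosses as in seed plants the chaperone transcripts rise early after the onset of heat and are then adjusted while the heat lasts.

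The 6 h libraries held between 7623160 and 8464090 counts, and their TMM scaling factors lay between 0.960 and 1.06. The 2 replicates of 37 °C 6 h differed from each other more than those of 24 °C 6 h, at 13.3 chi-square units a gene against 7.13. Replicate pairs of the series ranged from 2.90 at 24 °C 24 h to 40.3 at 37 °C 1 h. The part of the study's supplementary tables used here gives product names, taken from the best match in Arabidopsis thaliana, for 480 of the tested genes (2.24%). Only 1 comparison of the study's list of differentially expressed genes was in that part, so the study itself names more genes. Of the named genes 470 come from that list of genes that rose after 37 °C for 1 h, in libraries that are not used in the 6 h comparison. The names therefore cover 8.56% of the up-regulated genes and 0.399% of the down-regulated genes, and counts over named genes are not counts over the genome. No chlorophyll-binding protein has a name in the part used, and the green tissue was represented by 2 genes for the small chain of rubisco, the enzyme that fixes carbon dioxide. Pp3c3_12530 of this pair had 9.93 and 7.03 CPM at 24 °C and Pp3c3_12330 had 0 reads in both. With 1 expressed gene that does not separate protonemata from other green tissue, the tissue label could not be checked.

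Heat shock elements were listed by the study for 49 genes, 67 elements in all, as sites of 12 bases upstream of the start codon of genes with a common expression pattern in these same libraries. The 6 genes of that list with the largest fitted log2 fold change in size after 6 h are shown as those at the top of the list by fitted change. The fits of Pp3c18_16670, Pp3c8_8490 and Pp3c8_9380 are against 0 reads at 24 °C, and Pp3c8_9380 was not called. Each line gives the strand that reads 5′ to 3′ through the site, with the site in capitals and 9 bases on each side in lower case, as listed from the Ppatens_318_v3.3 genome.
Pp3c18_16670, HSP20-like, plus strand: ctctgttcaGAAGTCTCTGGAaaactctag
Pp3c18_16670, HSP20-like, minus strand: gcaagtctaGAACCCCCTAGAaatcccaag
Pp3c8_8490 and Pp3c8_9380, HSP20-like, minus strand: cactccaggGGACCCTCTCGAagcctccag
Pp3c8_8490 and Pp3c8_9380, HSP20-like, plus strand: gcgaggcagGGAGGCCCTGGAggcttcgag
Pp3c21_19080, HSP20-like, plus strand: cagcccttgGAAGTCTCTGGAacagagatt
Pp3c13_3400, BCL-2-associated athanogene 6, plus strand: ttattcaaaGAAGGATCCAGAcgcagcaga
Pp3c13_3400, BCL-2-associated athanogene 6, plus strand: agcaaagcaGCACCTTCTAGAatgcaaccg
Pp3c24_4390, HSP20-like, plus strand: agaaatttaGAAGGATCCAGAagtgtagga

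A heat shock element is built from GAA units in alternating orientation. Of the 67 listed sites 51 began with GAA (76.1%), 42 ended with AGA (62.7%) and 29 held CTAGA on either strand (43.3%). Within the 30-base windows that include the flanks, searched on both strands, 25 held the pair GAANNTTC (37.3%), 21 the pair TTCNNGAA (31.3%) and 16 the 3-unit run GAANNTTCNNGAA (23.9%), which holds both pairs and is counted under them too. The study chose the elements by searching promoters of genes that rose together, and the share of all promoters that hold these letters was not computed here. The elements of Pp3c8_8490 and Pp3c8_9380 were identical, so reads of this pair of genes may be shared between near-identical copies. Of the 49 genes with a listed element 41 were up-regulated after 6 h and none was down-regulated, with a median log2 fold change of 1.82, against 13.8% up-regulated and a median of 0 over all genes tested. The list was made from the same libraries and is not independent evidence of this direction. With limma's treat test 22 of the 49 passed.

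The comparison with 24 °C gave 2956 up-regulated genes (13.8% of 21429) and 3758 down-regulated genes (17.5%). The changes were large in both directions, as the plot of all genes tested shows. A rise of at least 2 on the log2 scale was seen in 1115 genes and one of at least 5 in 232, and a fall of at least 2 was seen in 1724 genes and one of at least 5 in 218. The median log2 fold change was 1.66 among up-regulated and −1.89 among down-regulated genes, and 1.64 for the rising genes when those without a read at 24 °C were set to their lower bound. Both 37 °C libraries lay above both 24 °C libraries in 2949 of the 2956 rising genes, and both lay below them in 3741 of the 3758 falling genes, where the libraries of 77.1% of all genes tested did not overlap.

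**Figure D1:**
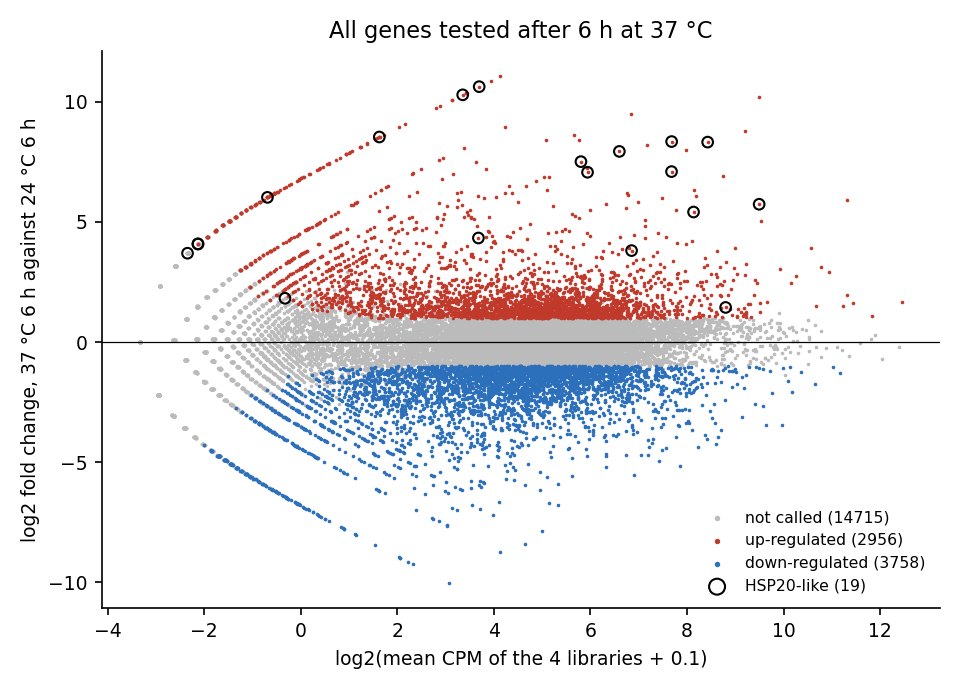
Each point is 1 of the 21429 genes tested, with the mean CPM of the 4 libraries on a log2 axis and the log2 fold change of 37 °C 6 h against 24 °C 6 h on the vertical axis. Up-regulated genes (2956) are red, down-regulated genes (3758) are blue, and the circles mark 19 HSP20-like genes, all of which lie above 0.

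The up-regulated genes took up 7.37% and 7.56% of the normalised counts in the 24 °C libraries and 24.2% and 25.9% in the 37 °C libraries. The down-regulated genes went the other way, from 24.4% and 24.7% to 7.00% and 6.80%. The genes that rose had started lower, with a median level of 9.18 CPM at 24 °C, than the genes that fell, with 25.6 CPM. No read was found at 24 °C for 149 of the up-regulated genes, and none at 37 °C for 168 of the down-regulated genes. Without regard to the adjustment, 6035 genes rose and 6258 fell at p under 0.05. The strictness of the test mattered for the counts, since limma's treat, which tests each gene against the log2 fold change limit itself, called 986 genes up and 1506 down.

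Chaperones and HSFs were up-regulated as a group. Of 72 genes named as chaperones, co-chaperones or HSFs 61 rose and none fell, against 13.8% and 17.5% of all genes tested, with a median log2 fold change of 2.54 (2.34 with the genes without a read at 24 °C set to their bound). They held 0.365% and 0.329% of the normalised counts at 24 °C and 2.20% and 1.68% at 37 °C. All 72 had been named because they rose after 1 h at 37 °C in other libraries. This choice holds for each of the families described next and favours a rise in them. With limma's treat 39 of the 72 passed. The first 37 °C library was the higher of the pair in 62 of the 72 genes, against 11070 of all 21429 genes, and without it 56 were called.

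The median log2 fold change of the HSP20-like genes was 6.02 as fitted and 5.41 with the 7 genes without a read at 24 °C set to their bound. Of 19 genes tested 15 were up-regulated, against 13.8% of all genes tested. The other 4 had at most a few reads or a wide spread. The family's share of the normalised counts was 0.0332% and 0.0289% at 24 °C and 0.541% and 0.392% at 37 °C. Pp3c1_7030 had 2.63 and 1.60 CPM at 24 °C and 799 and 573 CPM at 37 °C, a log2 fold change of 8.32 ± 0.38 with an adjusted p of 2.1e-10 in edgeR. Pp3c16_7110 had 1.60 and 0.863 CPM at 24 °C and 542 and 276 CPM at 37 °C, a log2 fold change of 8.35 ± 0.51 with an adjusted p of 2.7e-09. In both genes the 37 °C libraries lay far above the 24 °C libraries, and those of Pp3c16_7110 were themselves apart. Pp3c12_24560, already clearly expressed in unheated tissue, had 26.6 and 26.5 CPM at 24 °C and 1605 and 1225 CPM at 37 °C, a log2 fold change of 5.74 ± 0.36 with an adjusted p of 3.4e-09. Pp3c21_19080, whose element is printed above, had 14.3 and 11.5 CPM at 24 °C and 696 and 402 CPM at 37 °C, a rise of 5.41 ± 0.45 with an adjusted p of 6.3e-08. The libraries of the groups did not overlap in any of these genes. At the other end of the family, Pp3c13_3880 had 253 and 227 CPM at 24 °C and 684 and 618 CPM at 37 °C and rose by 1.44 ± 0.18 on the log2 scale, with an adjusted p of 4.2e-06.

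Several HSP20-like genes had no read in unheated tissue, so their folds are lower bounds that set the 24 °C group at 3 counts over both libraries. Pp3c23_14390 had 0 reads in both 24 °C libraries and 32.1 and 19.3 CPM at 37 °C, at least 144.4-fold higher. Pp3c17_1520 had 0 reads in both and 28.9 and 11.6 CPM, at least 113.7-fold higher. Pp3c18_16670, with 2 listed elements, had 0 reads and 8.53 and 3.41 CPM, at least 33.6-fold higher. The 3 genes were thus without a read at 24 °C and present in both 37 °C libraries, with edgeR adjusted p-values of 4.7e-04, 1.2e-04 and 0.0038. Pp3c8_8490 had 0 reads at 24 °C and 0.764 and 1.31 CPM at 37 °C, at least 5.84-fold higher, with an adjusted p of 0.01, and its call ended when the first 24 °C library was left out. The gene with the same elements, Pp3c8_9380, had 0.382 and 0.131 CPM at 37 °C and was not called (adjusted p = 0.12).

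The ATP-driven chaperones rose in nearly all cases. Of 9 HSP70 genes 8 were up-regulated, against 13.8% of all genes tested, with a median log2 fold change of 2.42. Pp3c12_9300 had 0.114 and 0.370 CPM at 24 °C and 122 and 78.9 CPM at 37 °C, a log2 fold change of 8.63 ± 0.53 with an edgeR adjusted p of 3.2e-09, and was nearly absent without heat. Pp3c26_10600 had 61.9 and 45.4 CPM at 24 °C and 717 and 503 CPM at 37 °C, a log2 fold change of 3.51 ± 0.32 with an adjusted p of 1.9e-07. The HSP70 gene that was not called, Pp3c14_19430, had 84.0 and 87.9 CPM at 24 °C and 176 and 152 CPM at 37 °C, a log2 fold change of 0.93 ± 0.17 that stayed under the limit of 1 with an adjusted p of 2.1e-04. The groups did not overlap in any of these HSP70 genes. With limma's treat 5 of the 9 passed.

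All 5 HSP90 genes were up-regulated (2 with limma's treat), against 13.8% of all genes tested, with a median log2 fold change of 1.82. The gene named as a chaperone of the htpG family, Pp3c14_3360, had 359.9 and 347 CPM at 24 °C and 2151 and 1708 CPM at 37 °C, a log2 fold change of 2.45 ± 0.16 with an edgeR adjusted p of 5.6e-09. Pp3c19_15000 of the same name had 41.2 and 39.5 CPM at 24 °C and 303 and 309 CPM at 37 °C and rose by 2.92 ± 0.21 on the log2 scale, with an adjusted p of 1.1e-08. Pp3c15_4270, named heat shock protein 81-2, had 284 and 265 CPM at 24 °C and 647 and 490.0 CPM at 37 °C, a log2 fold change of 1.05 ± 0.26 with an adjusted p of 0.0026, and was not called without the first 37 °C library. Each of the 3 genes had both 37 °C libraries above both 24 °C libraries. The 2 Clp ATPase genes, disaggregases of the HSP100 class, rose by 3.24 ± 0.33 in Pp3c19_4790 and by 1.96 ± 0.16 in Pp3c24_9060, with adjusted p-values of 5.9e-07 and 5.4e-08.

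All 9 chaperonin genes were up-regulated, against 13.8% of all genes tested, with a median log2 fold change of 2.77. Their share of the normalised counts went from 0.0881% and 0.0740% to 0.594% and 0.444%. Pp3c24_12180, a subunit of the TCP-1/cpn60 family, had 228 and 194 CPM at 24 °C and 2104 and 1361 CPM at 37 °C, a log2 fold change of 3.04 ± 0.23 with an edgeR adjusted p of 2.7e-08. Pp3c26_2180 of the same family had 114 and 115 CPM at 24 °C and 1191 and 978 CPM at 37 °C, a log2 fold change of 3.24 ± 0.22 with an adjusted p of 7.8e-09. Pp3c16_4660 rose by 2.83 ± 0.17, with an adjusted p of 2.7e-09. In these genes the lowest 37 °C library stood well above the highest 24 °C library. Among the genes named chaperonin 20, the lid of the chloroplast chaperonin ring, Pp3c22_7600 had 0.913 and 0.493 CPM at 24 °C and 6.49 and 5.91 CPM at 37 °C. Its log2 fold change was 3.10 ± 0.44 with an adjusted p of 2.0e-05.

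**Figure D2:**
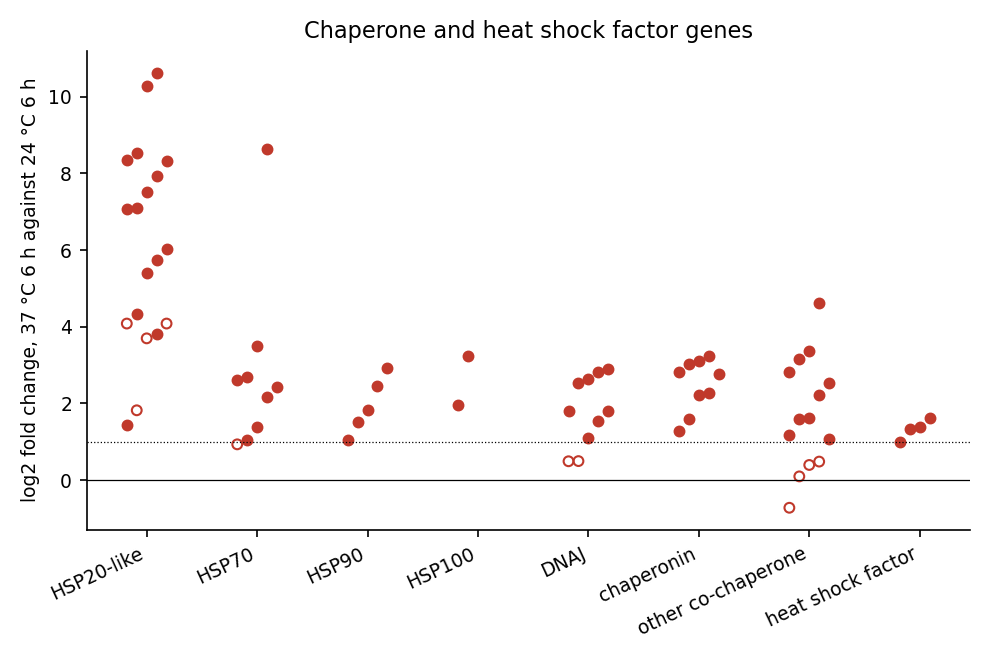
Each circle is 1 gene, placed by its log2 fold change of 37 °C 6 h against 24 °C 6 h in its family, filled where the gene was called and open where it was not, with the limit of 1 as a dotted line. Of the 72 genes 61 are filled, the 3 highest HSP20-like genes are fits against 0 reads at 24 °C, and 1 co-chaperone gene lies below 0 without being called.

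Co-chaperones rose in most cases. DNAJ proteins, which hand unfolded proteins to HSP70, were up-regulated in 8 of 10 genes (5 with limma's treat), against 13.8% of all genes tested. Their median log2 fold change was 1.8. Pp3c21_19850 had 96.1 and 83 CPM at 24 °C and 723 and 543 CPM at 37 °C, a log2 fold change of 2.82 ± 0.30 with an edgeR adjusted p of 7.8e-07, and Pp3c17_2260 had 7.54 and 9.74 CPM at 24 °C and 35.3 and 24.8 CPM at 37 °C, a log2 fold change of 1.8 ± 0.31 with an adjusted p of 1.2e-04. Of 14 other co-chaperones 10 were up-regulated, against the same 13.8%. The athanogene Pp3c13_3400, whose family is known in animals to bind HSP70, had 4.45 and 2.84 CPM at 24 °C and 109 and 69.9 CPM at 37 °C, a log2 fold change of 4.61 ± 0.47 with an adjusted p of 6.0e-07. It was the largest rise of this list, and its libraries did not overlap. Among the genes named Fes1A, which releases the nucleotide from HSP70, Pp3c16_19440 had 26.3 and 17.6 CPM at 24 °C and 217 and 173 CPM at 37 °C. Its log2 fold change was 3.15 ± 0.33 with an adjusted p of 7.2e-07. Aha1, which stimulates the ATPase of HSP90, was Pp3c15_21400 with 29.8 and 25.4 CPM at 24 °C and 219 and 168 CPM at 37 °C, a log2 fold change of 2.81 ± 0.22 with an adjusted p of 3.7e-08. The groups were separate in both. A hikeshi-like gene, Pp3c10_12120, named after the importer of HSP70 into the nucleus in human cells, rose by 2.54 ± 0.25 (adjusted p = 3.1e-07). Pp3c11_20290, a stress-inducible protein of the kind that bridges HSP70 and HSP90, rose by 1.61 ± 0.15 (adjusted p = 1.9e-07).

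The HSF genes had a smaller median change than the chaperones. All 4 were called up, against 13.8% of all genes tested, with a median log2 fold change of 1.37. However, none passed limma's treat and 1 passed edgeR's glmTreat. The paper gives Pp3c22_9250 and Pp3c21_18820 as homologs of Hsf2B and proposes that they may restrain the response. Their role was not tested here, so the rise of HSF genes cannot be read as a rise of activators or of repressors. Pp3c22_9250, named heat shock factor 3, had 19.4 and 17.0 CPM at 24 °C and 60.1 and 52.2 CPM at 37 °C, a log2 fold change of 1.62 ± 0.28 with an edgeR adjusted p of 1.3e-04. Pp3c21_18820, named HSF4, had 14.7 and 11.6 CPM at 24 °C and 36.4 and 30.6 CPM at 37 °C, a log2 fold change of 1.34 ± 0.31 with an adjusted p of 0.0014. Pp3c11_20430 had 24.7 and 21.3 CPM at 24 °C and 38.8 and 53.4 CPM at 37 °C and stood at the limit, with a log2 fold change of 1.00 ± 0.23 and an adjusted p of 0.0016, and its call ended under 11 of 15 alternatives, among them leaving out the second library of either group. In all 3 genes both 37 °C libraries were above both 24 °C libraries.

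Other genes of protein quality control changed in part. Of 10 genes of the endoplasmic reticulum and the secretory pathway 1 rose and 1 fell, shares no higher than the 13.8% and 17.5% of all genes tested. The vesicle transporter gene Pp3c16_11760 had 27.7 and 24.2 CPM at 24 °C and 132 and 115 CPM at 37 °C, a log2 fold change of 2.25 ± 0.20 with an edgeR adjusted p of 9.4e-08. The subunit of the signal peptidase, which trims secreted proteins, was Pp3c12_22760 with 2.85 and 3.70 CPM at 24 °C and 1.02 and 0.787 CPM at 37 °C, a log2 fold change of −1.84 ± 0.48 with an adjusted p of 0.0041. Neither gene had overlapping libraries. Of 14 ubiquitin genes, which mark proteins for the proteasome, 4 rose and none fell (2 with limma's treat). The RING/U-box gene Pp3c7_700, a member of a ubiquitin ligase family, had 3.20 and 2.71 CPM at 24 °C and 43.4 and 41.1 CPM at 37 °C, a log2 fold change of 3.83 ± 0.26 with an adjusted p of 8.9e-09. Polyubiquitin genes were not called, and Pp3c12_18200, with 434 and 453 CPM at 24 °C and 339.6 and 195 CPM at 37 °C, had a log2 fold change of −0.73 ± 0.29 and an adjusted p of 0.041. Both cyclophilin-like prolyl isomerases, which speed folding at proline, were up-regulated, Pp3c23_17310 by 1.56 ± 0.18 and Pp3c12_18980 by 1.36 ± 0.16, with adjusted p-values of 2.6e-06 and 2.7e-06. The Bax inhibitor-1 gene Pp3c3_15530, of a family that limits death from stress of the endoplasmic reticulum, had 25.5 and 27.4 CPM at 24 °C and 159.7 and 135 CPM at 37 °C, a log2 fold change of 2.48 ± 0.22 with an adjusted p of 1.3e-07. Another gene of this name, Pp3c1_12850, had a smaller log2 fold change of 1.13 and did not pass limma's treat.

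Of 5 genes for translocases or carrier proteins of mitochondria 4 rose (1 with limma's treat), against 13.8% of all genes tested. Only the translocases are named for the import of proteins, and all 5 genes had been called up at 1 h. The inner membrane translocase subunit 17-2, part of the channel for proteins, was Pp3c19_6080 with 50.9 and 42.2 CPM at 24 °C and 209 and 196 CPM at 37 °C, a log2 fold change of 2.12 ± 0.19 with an edgeR adjusted p of 1.4e-07. Late embryogenesis abundant proteins, hydrophilic proteins of drying tissue, rose in 4 of 5 genes, with a median log2 fold change of 2.78. All 5 genes of this list too had been called up at 1 h. Pp3c22_13190 had 4.11 and 4.44 CPM at 24 °C and 78.1 and 81.2 CPM at 37 °C, a log2 fold change of 4.21 ± 0.45 with an adjusted p of 8.5e-07, and the dehydrin Pp3c13_20930 had 7.08 and 5.18 CPM at 24 °C and 67.0 and 57.1 CPM at 37 °C, a log2 fold change of 3.33 ± 0.38 with an adjusted p of 1.8e-06. Libraries of the groups lay far apart in both. The gene of this list that was not called, Pp3c21_10640, had 45.2 and 51.9 CPM at 24 °C and 107 and 55.6 CPM at 37 °C, a log2 fold change of 0.74 ± 0.49.

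Named genes of metabolism changed unevenly. Of 4 carbon fixation genes 3 were up-regulated, against 13.8% of all genes tested, and all 4 had been called up at 1 h. The rubisco small chain gene Pp3c3_12530 had 9.93 and 7.03 CPM at 24 °C and 108 and 57.9 CPM at 37 °C, a log2 fold change of 3.28 ± 0.31 with an edgeR adjusted p of 2.6e-07, and Pp3c3_12330, without a read at 24 °C, had 19.1 and 8.40 CPM, at least 77.3-fold higher, with an adjusted p of 1.5e-06. Rubisco small chains form a family of near-identical genes in many plants, and reads may be shared among copies. The transketolase Pp3c20_1720 had 96.4 and 117 CPM at 24 °C and 98.6 and 139 CPM at 37 °C, overlapping values with a log2 fold change of 0.15 ± 0.47 and an adjusted p of 0.81. Neither of the 2 genes of photosystems was called. Ferritin, the iron store of plastids, was Pp3c10_3790 with 12.3 and 14.8 CPM at 24 °C and 199 and 216 CPM at 37 °C, a log2 fold change of 3.93 ± 0.34 with an adjusted p of 8.5e-08. Thioredoxin H, a reductant of disulfide bonds, was Pp3c1_28390 with 130.5 and 132 CPM at 24 °C and 617 and 703 CPM at 37 °C, a log2 fold change of 2.33 ± 0.28 with an adjusted p of 3.3e-06. In both the heated libraries were the higher ones without overlap. None of the 4 cell wall genes was called.

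Signalling and regulatory genes with a name rose more often than they fell, a direction that the choice of names from genes that rose at 1 h favours. Over all genes tested 13.8% rose and 17.5% fell. Of 15 protein kinases 6 rose and 1 fell (1 rose with limma's treat), of 5 protein phosphatases 3 rose (1 with limma's treat), and of 19 transcription factors 7 rose and 1 fell (3 rose with limma's treat). Pp3c10_2370, a leucine-rich repeat kinase, had 0 reads in both 24 °C libraries and 32.9 and 28.2 CPM at 37 °C, at least 171.7-fold higher, with an edgeR adjusted p of 9.0e-09. The kinase Pp3c16_7450 went the other way, with 59.7 and 56.1 CPM at 24 °C and 18.6 and 9.19 CPM at 37 °C, a log2 fold change of −2.06 ± 0.28 and an adjusted p of 1.3e-05. The type 2C phosphatase Pp3c27_290, of a family that switches off kinases of stress signalling, had 26.6 and 32.4 CPM at 24 °C and 257 and 284 CPM at 37 °C, a log2 fold change of 3.19 ± 0.19 with an adjusted p of 2.4e-09. All of these had separate groups. The zinc finger gene Pp3c8_230 rose by 2.28 ± 0.33 and the TCP family factor Pp3c10_14310 by 2.03 ± 0.23, and the B-box gene with a CCT domain, Pp3c11_6300, had 9.36 and 6.78 CPM at 24 °C and 1.66 and 1.84 CPM at 37 °C, a log2 fold change of −2.20 ± 0.50 with an adjusted p of 0.0015.

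Of 19 membrane transport genes 10 were up-regulated and none fell (2 with limma's treat). Over all genes tested 13.8% rose and 17.5% fell, and the names in the lists of this paragraph come mainly from genes that rose at 1 h. The auxin efflux carrier Pp3c19_9690, which moves the hormone auxin out of cells, had 0 and 0.247 CPM at 24 °C and 18.9 and 16.0 CPM at 37 °C. With 2 reads in the 24 °C group this was a 147.2-fold rise with an exact 95% counting interval of 40.4 to 1221, which covers counting error only, and an edgeR adjusted p of 4.6e-06. The cation efflux gene Pp3c2_25950 had 1.94 and 1.23 CPM at 24 °C and 15.4 and 17.4 CPM at 37 °C, a log2 fold change of 3.35 ± 0.30 with an adjusted p of 1.4e-07. Heated libraries were higher in both, from low starting levels. Of 10 RNA processing genes 6 rose (3 with limma's treat), and of 4 translation genes 2 rose, among them the eIF3 subunit Pp3c24_9310, part of a translation initiation factor, with 1.60 and 1.73 CPM at 24 °C and 22.4 and 20.2 CPM at 37 °C, a log2 fold change of 3.67 ± 0.34 and an adjusted p of 2.0e-07. Of 6 cell division genes 3 rose and 1 fell. Among the genes named TPX2, which organises the spindle, Pp3c2_24850 had 6.28 and 6.66 CPM at 24 °C and 44.6 and 51.4 CPM at 37 °C. Its log2 fold change was 2.89 ± 0.25 with an adjusted p of 8.5e-08. The SMR3-like inhibitor of cyclin-dependent kinases, Pp3c23_21800, had 50.6 and 41.2 CPM at 24 °C and 28.4 and 12.1 CPM at 37 °C, a log2 fold change of −1.18 ± 0.38 with an adjusted p of 0.014, and was not called without the first 24 °C library or without the second 37 °C library.

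**Figure D3:**
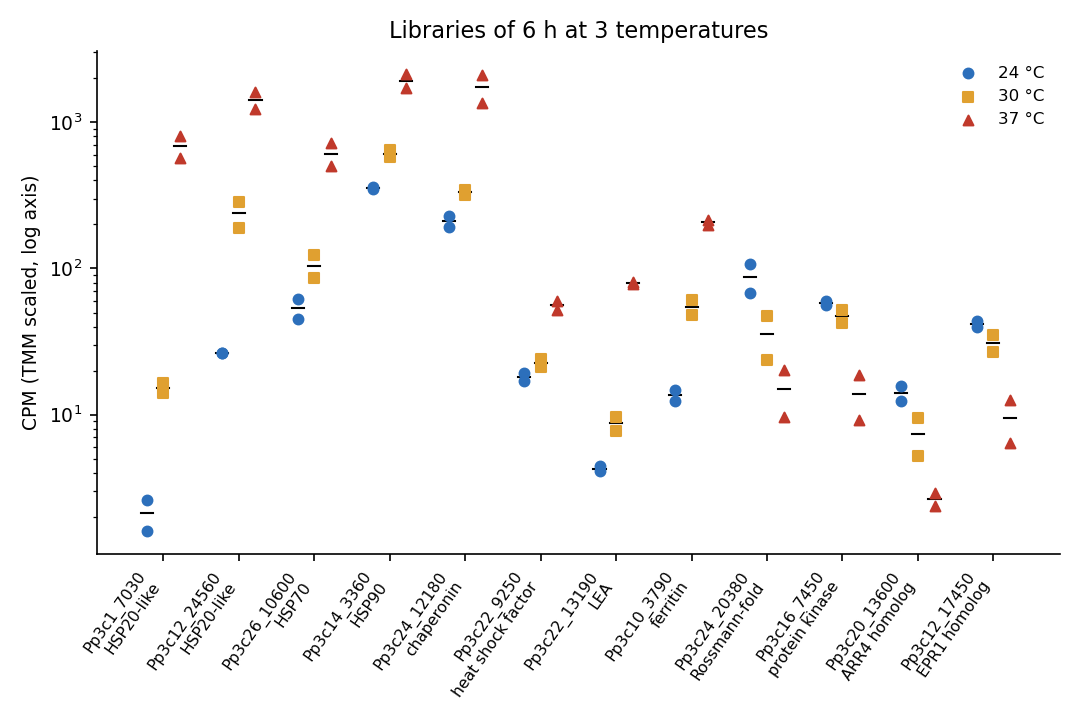
CPM on a log axis of 12 genes in the 2 libraries each of 24, 30 and 37 °C at 6 h, with the mean as a black bar. For the 8 rising genes on the left both 37 °C libraries lie above both 24 °C libraries, and for the 4 falling genes on the right both lie below them.

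Of the named genes 15 were down-regulated, in a set of names drawn mainly from genes that rose at 1 h. The NAD(P)-binding gene Pp3c24_20380 had 68.2 and 108 CPM at 24 °C and 9.68 and 20.2 CPM at 37 °C, a log2 fold change of −2.56 ± 0.47 with an edgeR adjusted p of 2.3e-04. Pp3c10_2740, with a BRO1-like domain of endosomal sorting proteins, had 12.6 and 14.6 CPM at 24 °C and 3.06 and 1.05 CPM at 37 °C, a log2 fold change of −2.71 ± 0.60 with an adjusted p of 0.0012. The sphingolipid desaturase Pp3c21_180, an enzyme of membrane lipids, had 25.1 and 48.5 CPM at 24 °C and 8.02 and 16.8 CPM at 37 °C, a log2 fold change of −1.57 ± 0.34 with an adjusted p of 9.2e-04. Each of these had both 37 °C libraries below both 24 °C libraries. The acyl carrier protein thioesterase Pp3c18_15010, which ends fatty acid synthesis, fell by 1.35 ± 0.28 and the nucleoside triphosphate hydrolase Pp3c25_6240 fell by 1.47 ± 0.22, with adjusted p-values of 6.9e-04 and 3.7e-05. Pp3c16_7650, named an inactive rhomboid protein, had 483 and 639 CPM at 24 °C and 214 and 268 CPM at 37 °C, a log2 fold change of −1.22 ± 0.36 with an adjusted p of 0.0088. Its neighbour by gene number, Pp3c16_7660, named as the catalytic subunit of DNA polymerase epsilon, had 377 and 502 CPM at 24 °C and 171 and 216 CPM at 37 °C, a log2 fold change of −1.18 ± 0.37 with an adjusted p of 0.013. The values of this pair ran in parallel in each of these libraries. The counting at default settings did not use the strand. Whether the genes of this pair overlap was not examined, and the cause of the parallel values was not tested. Neither was called without the second 24 °C library or without the first 37 °C library.

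The highest and the lowest fitted log2 fold changes of all genes called, 11.07 and −10.01, belonged to genes without a name. Pp3c4_27971 had 0 reads in both 24 °C libraries and 30.1 and 39.4 CPM at 37 °C, at least 195.2-fold higher, with an edgeR adjusted p of 8.2e-07. Pp3c11_2330 had 0 reads and 25.9 and 17.2 CPM, at least 121-fold higher, with an adjusted p of 3.5e-07. On the falling side, Pp3c8_2810 had 17.2 and 16.0 CPM at 24 °C and 0 reads at 37 °C, at least 85.8-fold lower, with an adjusted p of 5.9e-09. Pp3c6_23160 had 36.0 and 33.8 CPM at 24 °C and 0.127 and 0 CPM at 37 °C, where a single read was found, so that it was 540.3-fold lower with an exact 95% counting interval of 96.6 to 21380 and an adjusted p of 2.1e-08. These 4 genes had reads in both libraries of one temperature and at most 1 read at the other.

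Homologs of clock and light signalling genes changed in both directions. The list holds 52 genes matched to Arabidopsis genes in an earlier survey, of which 50 were tested and 2 had 2 and 22 reads in all 24 libraries. Of the 50 genes 10 were up-regulated and 10 down-regulated, against 13.8% and 17.5% of all genes, with a median log2 fold change of −0.15 against 0. With limma's treat 5 rose and 5 fell. Many of these genes follow the time of day. Without heat 7 of the 50 were higher and 5 lower in the 24 °C libraries of 6 h than in those of 1 h. Over all genes tested these shares were 8.39% and 5.43%.

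The rises included photoreceptor and clock homologs. The phytochrome homolog Pp3c16_18760 (PHYC), a red light receptor, had 6.96 and 11.3 CPM at 24 °C and 51.4 and 49.1 CPM at 37 °C, a log2 fold change of 2.46 ± 0.37 with an edgeR adjusted p of 3.7e-05. Pp3c2_24290, a homolog of COP1, the ubiquitin ligase that represses light responses in the dark, had 86.1 and 104 CPM at 24 °C and 539.5 and 449.8 CPM at 37 °C, a log2 fold change of 2.38 ± 0.25 with an adjusted p of 6.3e-07. Pp3c16_18610, a homolog of the pseudo-response regulator PRR3, had 390.0 and 382 CPM at 24 °C and 1242 and 1233 CPM at 37 °C, a log2 fold change of 1.68 ± 0.16 with an adjusted p of 2.5e-07. All 3 had higher values in both heated libraries. Pp3c7_6560, a homolog of the RNA-binding protein CCR2 whose transcript cycles daily in Arabidopsis, had 2532 and 2809 CPM at 24 °C and 7867 and 9116 CPM at 37 °C, a log2 fold change of 1.67 ± 0.18 with an adjusted p of 8.3e-07. Homologs of the casein kinase subunits CKB3 and CKB4 rose as well, Pp3c5_14940 by 1.70 ± 0.12, Pp3c6_12500 by 1.34 ± 0.17 and Pp3c16_12520 by 1.27 ± 0.18.

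The falls included response regulators and other clock homologs. Of 4 homologs of ARR4, a response regulator of cytokinin signalling, 3 were tested and each of these fell, while Pp3c20_19070 had 2 reads in all 24 libraries. Pp3c20_13600 had 15.6 and 12.5 CPM at 24 °C and 2.93 and 2.36 CPM at 37 °C, a log2 fold change of −2.40 ± 0.33 with an edgeR adjusted p of 1.3e-05, and Pp3c22_9010 and Pp3c23_6230 fell by 2.13 ± 0.25 and 2.05 ± 0.46. Pp3c12_17450, a homolog of the MYB-like clock gene EPR1, had 43.6 and 40.1 CPM at 24 °C and 12.6 and 6.43 CPM at 37 °C, a log2 fold change of −2.13 ± 0.23 with an adjusted p of 1.1e-06. Pp3c16_18460, a homolog of PRR7, had 286 and 269 CPM at 24 °C and 111 and 97.4 CPM at 37 °C, a log2 fold change of −1.41 ± 0.22 with an adjusted p of 4.9e-05. In these the 37 °C libraries were the lower ones without overlap.

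Homologs of the same Arabidopsis gene moved in opposite directions in some cases. Of several COP1 homologs in the list, Pp3c2_24290 rose while Pp3c5_26150 fell. Pp3c1_13190 was called up near the limit, with a log2 fold change of 1.03, and its call ended under 5 of 15 alternatives. The others appear only in the plot of all tested homologs. Pp3c5_26150 had 22 and 17.3 CPM at 24 °C and 4.33 and 4.86 CPM at 37 °C, a log2 fold change of −2.10 ± 0.21 and an edgeR adjusted p of 5.7e-07. Of the ELF3 homologs, part of the evening complex in Arabidopsis, Pp3c7_10610 rose with 4.0 and 4.69 CPM at 24 °C and 12.1 and 23.5 CPM at 37 °C, a log2 fold change of 2.03 ± 0.28 and an adjusted p of 1.4e-05. The other, Pp3c11_14750, had 57.4 and 67.6 CPM at 24 °C and 26.6 and 30.6 CPM at 37 °C, a log2 fold change of −1.13 ± 0.41 and an adjusted p of 0.028, a fall whose call ended when any 1 of the 4 libraries was left out. The phytochrome homolog Pp3c3_23790 (PHYE) had 31.6 and 38.6 CPM at 24 °C and 9.68 and 10.5 CPM at 37 °C and fell by 1.8 ± 0.25, while that of PHYB, Pp3c16_20280, had 86.3 and 89.5 CPM at 24 °C and 43.4 and 51.0 CPM at 37 °C and a log2 fold change of −0.90 ± 0.19, under the limit.

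**Figure D4:**
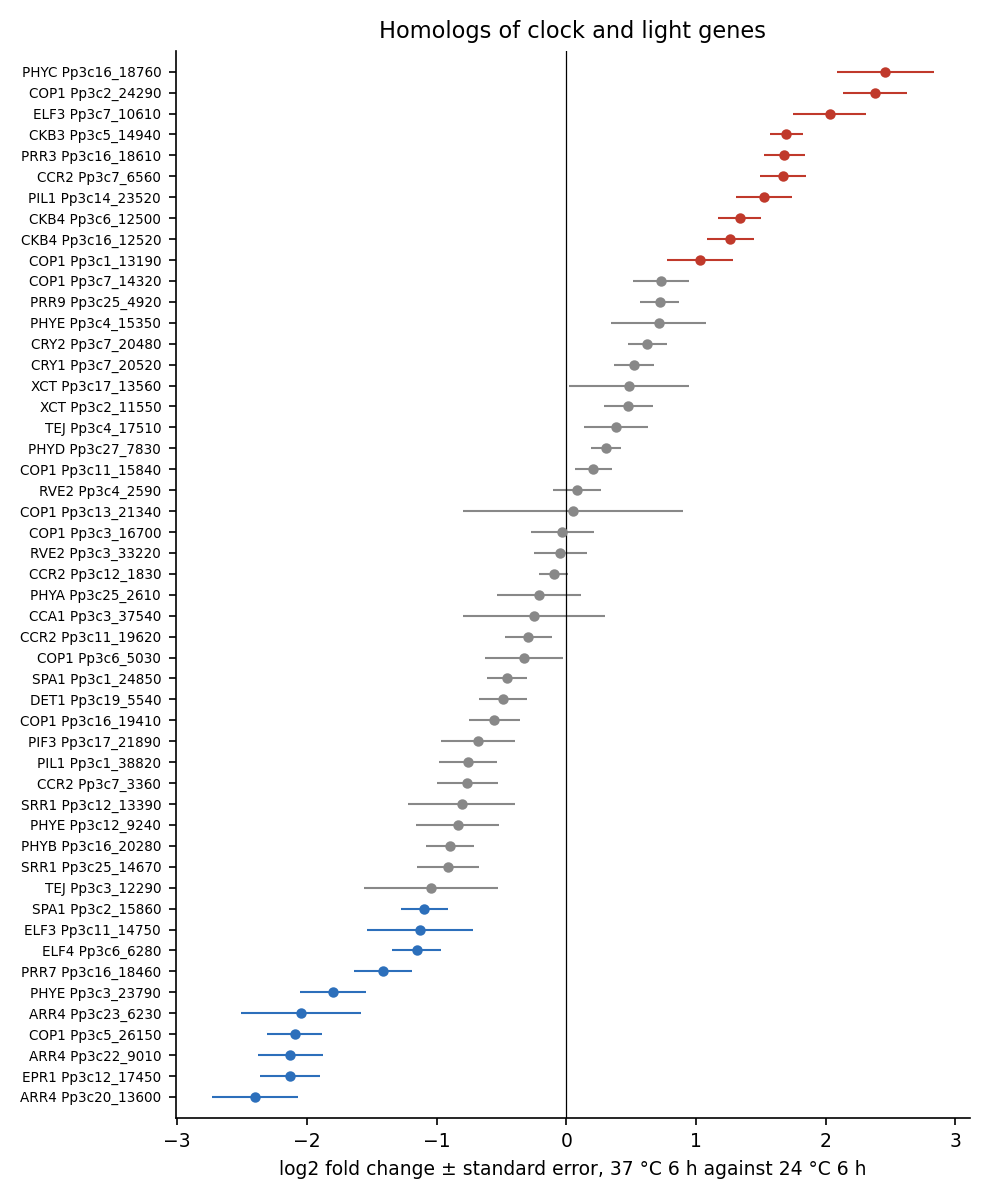
Log2 fold change of 37 °C 6 h against 24 °C 6 h with its standard error for the 50 tested homologs of Arabidopsis clock and light genes. The 10 up-regulated genes are red, the 10 down-regulated genes are blue, and homologs of COP1, ELF3 and the phytochromes appear at both ends.

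At 30 °C the same 6 h brought a small part of this change. Against the same 24 °C libraries, 141 genes were up-regulated (0.658%) and 98 down-regulated (0.457%), and with limma's treat 1 rose and 1 fell. Fewer were called when a library was left out, 66 and 49 up without the first or the second 24 °C library and 50 up without the first 30 °C library, with 41 down without the second 24 °C library and 33 down without the first 30 °C library. The comparisons with 24 °C share their control libraries, so their values are set side by side. The genes up-regulated at 37 °C had a median log2 fold change of 1.66 at 37 °C and 0.41 at 30 °C, and those down-regulated at 37 °C had −1.89 and −0.37. Of the HSP20-like genes 9 of 19 were up-regulated at 30 °C, and of the HSP70, HSP90 and chaperonin genes 1 of 9, 0 of 5 and 0 of 9. Pp3c12_24560 had 287 and 189 CPM at 30 °C, a log2 fold change of 3.16 ± 0.32 over 24 °C, and the HSP90 gene Pp3c14_3360 had 641 and 579 CPM, a log2 fold change of 0.79 ± 0.15. Both genes at 30 °C stood between their 24 °C and 37 °C libraries, without overlap on either side.

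Set against 30 °C directly, 37 °C for 6 h gave 2089 up-regulated (9.75%) and 2948 down-regulated genes (13.8%). Of the 72 chaperone and HSF genes 50 were higher at 37 °C than at 30 °C and none was lower. Most of the HSP20-like genes, 15 of 19, were higher, Pp3c1_7030 with 16.4 and 14.1 CPM at 30 °C and a log2 difference of 5.49 ± 0.31. Of the 4 HSF genes 3 were higher at 37 °C than at 30 °C. At 30 °C the 4 genes had log2 fold changes over 24 °C of −0.10 to 0.31. The rubisco gene Pp3c3_12530 behaved otherwise, with 62.0 and 58.6 CPM at 30 °C, already 2.82 ± 0.31 above 24 °C on the log2 scale, and a difference between 37 and 30 °C of 0.46 ± 0.27 that was not called. The ELF3 homolog Pp3c11_14750 was lowest at 30 °C, with 5.95 and 17.8 CPM, a log2 fold change of −2.38 ± 0.43 from 24 °C, and was 1.26 ± 0.43 higher at 37 °C than at 30 °C on the log2 scale.

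The response at 6 h differed from that at 1 h in many genes. The difference between the 2 responses, each taken against the 24 °C libraries of its own time, was called in 1853 genes with a higher (8.65%) and 3090 genes with a lower response at 6 h (14.4%). The 37 °C libraries of 1 h were the replicate pair furthest apart in the series, at 40.3 chi-square units a gene. Their TMM factors, 0.686 and 0.652, were the lowest. The split between higher and lower responses turned over with the scaling. Scaled by library totals instead of TMM, 3519 genes had a higher and 1995 a lower response, and the share of higher ones went from 37.5% to 63.8% while the median difference over all genes moved from −0.0736 to 0.315. The genes with a higher response went from a median of −0.75 on the log2 scale (1 h) to 1.02 (6 h), and the genes with a lower response had 0.63 at 1 h and −1.25 at 6 h. The 24 °C libraries of 6 h and 1 h also differed from each other, with 1798 genes higher (8.39%) and 1163 lower at 6 h (5.43%). Scaled by library totals these were 2263 and 893, the median over all genes moved from 0.0472 to 0.177, and the share of higher ones from 60.7% to 71.7%.

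Of the 72 chaperone and HSF genes 37 had a lower and none a higher response at 6 h than at 1 h, a direction that their choice from the 1 h comparison favours. The counts varied by family. Of the 14 other co-chaperones 12 had a lower response at 6 h, and of the 9 chaperonins 1 had. The median log2 fold change of the co-chaperones was 3.94 at 1 h and 1.61 at 6 h, and that of the chaperonins was 2.57 at 1 h and 2.77 at 6 h. These folds start from different 24 °C levels. Between the 24 °C libraries, 7 of 9 chaperonins were lower at 6 h than at 1 h and none higher, with a median log2 change of −1.66. Of the 14 co-chaperones 3 were lower and 2 higher, with a median of −0.44. Over all genes 5.43% were lower and 8.39% higher. In log2 fold change the HSP20-like gene Pp3c24_4390 stood at 10.70 ± 0.50 after 1 h and 4.33 ± 0.41 after 6 h, and Pp3c1_7030 at 7.59 ± 0.34 and 8.32 ± 0.38. The first of these had a lower response at 6 h (adjusted p = 3.1e-05 in edgeR), while the difference was not called in the second (adjusted p = 0.23). Of the 10 endoplasmic reticulum genes 9 and of the 14 ubiquitin genes 12 had a lower response at 6 h, against 14.4% of all genes. All members of both lists were called up at 1 h, so their choice favours this direction too. Their median log2 fold changes were 2.08 and 2.68 at 1 h, against 0.73 and 0.68 at 6 h.

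Of the 480 genes with a product name 2 had a called larger response at 6 h than at 1 h, against 8.65% of all genes tested. Of these names 470 come from genes that rose at 1 h, a choice that disfavours a larger response at 6 h. The kinase Pp3c10_2370 had 0.174 and 0.182 CPM at 24 °C and 3.22 and 2.49 CPM at 37 °C after 1 h after only 2 reads in that 24 °C group, 16.2-fold higher with an exact 95% counting interval of 4.13 to 139.4. Its response at 6 h was larger by 6.99 ± 1.75 on the log2 scale with an edgeR adjusted p of 0.006, a size that depends on the prior count because no read was found at 24 °C and 6 h. The cinnamyl alcohol dehydrogenase Pp3c2_10530, of an enzyme family of phenolic polymers, had 72.1 and 78.5 CPM at 24 °C and 273 and 236 CPM at 37 °C after 1 h and 55.8 and 54.3 CPM at 24 °C and 339 and 439 CPM at 37 °C at 6 h, a response larger by 1.06 ± 0.29 with an adjusted p of 0.01. Both rose at both times. Among the 50 tested clock and light homologs 5 had a higher and 13 a lower response at 6 h than at 1 h. Over all genes tested these shares were 8.65% and 14.4%. The COP1 homolog Pp3c2_24290 went from a log2 fold change of 0.54 ± 0.25 after 1 h to 2.38 ± 0.25 after 6 h (adjusted p of the difference = 5.9e-04). The EPR1 homolog Pp3c12_17450 rose by 1.52 ± 0.21 at 1 h and fell by 2.13 ± 0.23 at 6 h (adjusted p of the difference = 4.5e-07).

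**Figure D5:**
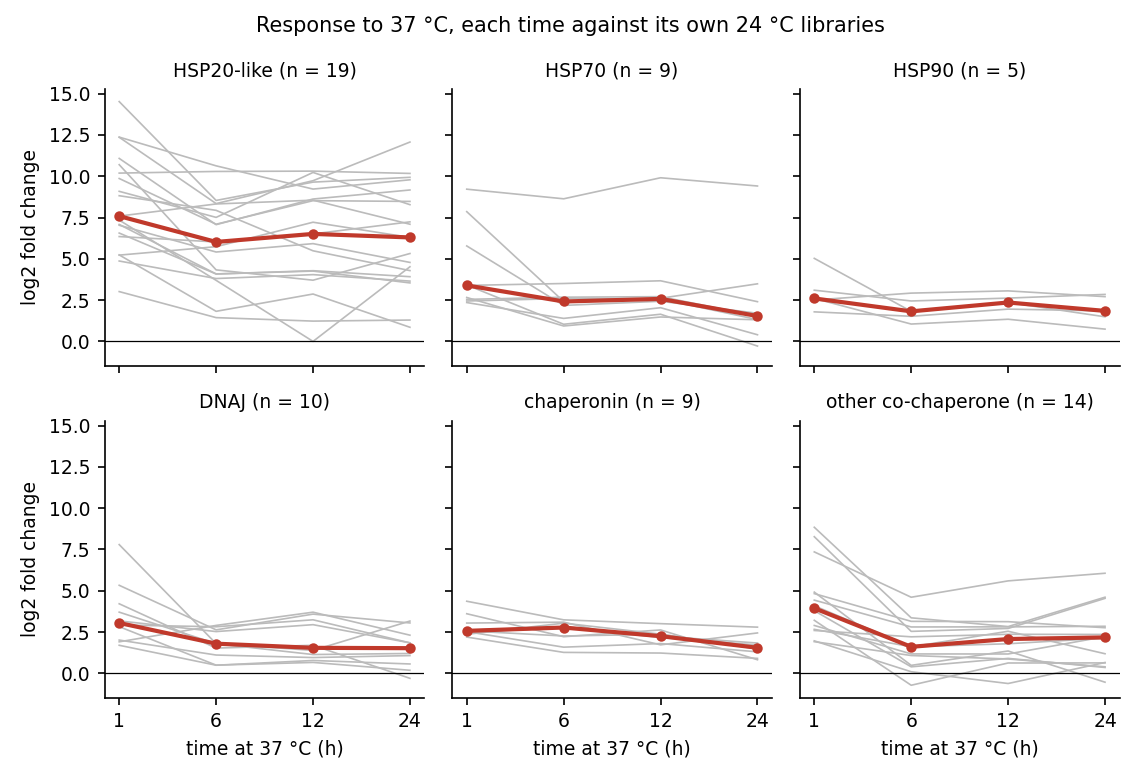
Log2 fold change of 37 °C against the 24 °C libraries of the same time at 1, 6, 12 and 24 h, with a grey line for each gene and the red line for the median of 6 chaperone families. The fitted HSP20-like median passed from 7.59 (1 h) through 6.02 (6 h) and 6.51 (12 h) to 6.30 (24 h), and the genes were named for their rise at 1 h.

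With continued heat the 6 h state was largely carried on. Of the genes up-regulated at 6 h 74.8% were also up-regulated at 12 h and 61.4% at 24 h, which made up 61.9% of the 3574 genes that rose at 12 h (16.7% of genes tested) and 47.0% of the 3860 that rose at 24 h (18%). Of the down-regulated genes 75.1% were down at 12 h and 62.5% at 24 h, being 70.2% of the 4019 genes that fell at 12 h (18.8%) and 56.1% of the 4189 that fell at 24 h (19.5%). The share in common with 1 h was lower, 37.5% of the genes that rose at 6 h and 40.7% of the 2722 that rose at 1 h (12.7%), and 30.2% of those that fell at 6 h and 49.5% of the 2291 that fell at 1 h (10.7%). These comparisons share no library. A total of 355 genes rose and 510 fell at 6 h and at no other time, and 655 rose and 726 fell at all 4 times.

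Called differences of the response between 6 h and 12 h were few, 425 genes higher (1.98%) and 190 lower at 6 h (0.887%). These counts depended on single libraries. Higher responses numbered 248 and 242 without the first or the second 24 °C library of 6 h, 283 without the first 37 °C library of 6 h and 220 without the first 24 °C library of 12 h. Lower responses numbered 106 and 105 without either 24 °C library of 6 h, 117 without the second 37 °C library of 6 h, and 70 and 107 without the first or the second 24 °C library of 12 h. Between 6 h and 24 h the response was higher at 6 h in 1797 genes (8.39%) and lower in 1747 (8.15%), a split that became 1249 and 2579 with library totals, where the median over all genes moved from −0.037 to −0.265. For the chaperones and HSFs the median log2 fold change was 2.54 after 6 h, 2.56 after 12 h and 2.18 after 24 h. Up-regulated members numbered 61, 60 and 53 of 72. The HSF genes separated from the rest by 24 h, when 1 of 4 was still up-regulated and their median log2 fold change was −0.08.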

How the data were processed

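Messenger RNA was sequenced from moss protonemata of 12 groups, 3 temperatures by 4 durations, with 2 libraries a group. The authors deposited raw counts, whole numbers of reads for each gene with no normalization. According to the submitters, demultiplexing used bcl2fastq 1.8.4, alignment to the Ppatens_318_v3.3 genome used BWA-MEM 0.7.17.1, and featureCounts with its default settings, which ignore the strand, assigned reads to genes. The 4 libraries of the main comparison held between 7845829 and 8464090 counts.

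The analysis ran in R 4.3.3 and edgeR 4.0.16. Genes above 0.5 CPM in at least 2 libraries were kept, libraries were scaled by TMM, and all 24 libraries entered 1 quasi-likelihood fit with a term for each group, so that the spread was shared by all groups. Each p-value was adjusted by Benjamini-Hochberg over all genes of a comparison, and SEs were obtained as the absolute log2 fold change over the root of F. A fold against a group without a read was computed from 3 counts over that group, and one against 1 to 3 reads has an exact 95% binomial interval for counting error. The script was checked on simulated counts. Alternatives used limma 3.58.1, DESeq2 1.42.0, other scaling, filters and limits, a replicate block and single libraries left out.

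Gene lists were made by name patterns over the product names in the part of the study's supplementary tables used here. Genes named are the 12 with the largest change in each direction among those with a name, a mean log2 CPM no lower than 1 and groups that do not overlap, up to 5 members of each list by change and 2 by level, the clock and light homologs and genes in the study's text, the 8 with the largest difference of response between 6 h and 1 h in each direction, the 5 highest in level in each direction and 2 in each direction without a name. The members, lists and rules were chosen with earlier results of these data known. The deposited gene IDs were not matched in the RefSeq table used here, and the authors' fold changes and p-values were not used.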

Additional observations from a re-analysis of the deposited data

Results flagged for a closer look

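The response to 37 °C at 6 h differed from the responses at other times in an edgeR test of the difference itself. Against 1 h it was higher in 1853 genes and lower in 3090, against 12 h higher in 425 and lower in 190, and against 24 h higher in 1797 and lower in 1747.

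The 2 genes with a product name and a called larger response at 6 h than at 1 h and the 8 named genes with the largest loss of response are given by the difference, the log2 response at 6 h less that at 1 h. Names come mainly from genes that rose at 1 h, a choice that disfavours a larger response at 6 h. Pp3c10_2370, a leucine-rich repeat kinase, stood at 6.99, and Pp3c2_10530, a cinnamyl alcohol dehydrogenase, at 1.06. The difference was −5.91 for Pp3c10_2740 with a BRO1-like domain and −5.57 for Pp3c24_20380 with a Rossmann fold, both of which rose at 1 h and fell at 6 h. Chaperone genes that rose at both times were Pp3c24_4390 of the HSP20 family at −6.37, the DNAJ gene Pp3c17_2260 at −6.00 and the hikeshi-like gene Pp3c10_12120 at −5.73. The levels behind the last of these were 3.83 and 4.90 CPM at 24 °C and 1395 and 1313 CPM at 37 °C after 1 h, against 31.3 and 27.4 CPM at 24 °C and 211 and 130.3 CPM at 37 °C at 6 h. Pp3c12_14210, an oxidoreductase, stood at −8.53, the WRKY gene Pp3c26_5090 at −7.15 and the calcium-binding gene Pp3c1_6530 at −7.04. These last 3 had under 1 CPM in every 6 h library of 24 or 37 °C, so their size rests on few reads, as does that of Pp3c10_2370, which had no read at 24 °C and 6 h.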

How the results depend on the processing

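Every gene called by an alternative for 37 °C against 24 °C, 37 °C against 30 °C or the response at 6 h against 1 h kept the direction it had in the reported result, if it was called there. DESeq2, RLE scaling, other filters on low counts, only the libraries of a comparison and leaving out genes without reads in a group (2807 up and 3590 down, chosen after seeing the data) kept the counts of the main comparison within 1.5 times. With limma's treat the counts up and down were 986 and 1506 against 24 °C, 430 and 823 against 30 °C, 1 and 1 for 30 °C against 24 °C, 289 and 720, 15 and 4, and 317 and 176 for the response at 6 h against 1, 12 and 24 h, 157 and 174 for 24 °C at 6 h against 1 h, and 39 chaperones and HSFs. With glmTreat they were 1452 and 2114, 740 and 1346, and 621 and 1339 for the first 2 comparisons and the response against 1 h. Without a limit on the fold change they were 5437 and 5675 against 24 °C and 4562 and 4687 against 30 °C, with 1 chaperone gene down. With library totals alone the response at 6 h against 1 h gave 3519 and 1995, and the median of all genes for 37 °C against 30 °C moved to −0.126.

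When single libraries were left out, the counts ranged from 2614 to 2741 up and 3399 to 3562 down against 24 °C, 1635 to 1967 and 2543 to 2774 against 30 °C, and 49 to 107 and 33 to 85 for 30 °C against 24 °C. For the response at 6 h they were 1539 to 2093 and 2655 to 3073 against 1 h, 220 to 577 and 70 to 253 against 12 h, and 1501 to 1786 and 1239 to 1557 against 24 h. For 24 °C at 6 h against 1 h they were 1271 to 1671 and 897 to 1133, and for the chaperones and HSFs 56 to 61. Log2 fold changes of genes that were not called changed sign in 4 cases and ranged from −5.10 to 0.16 for Pp3c26_5090, −3.06 to 0.091 for Pp3c1_6530, −0.10 to 0.29 for Pp3c19_8830 and −0.12 to 0.38 for Pp3c20_1720. The cause was not tested. Over all named genes and single libraries left out, a gene kept its direction and its side of the threshold 562 times, lost its call 35 times and gained one 3 times, and under the other settings these were 1551, 101 and 7 times.

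Same-numbered libraries of 24 °C and 37 °C at 6 h deviated together with a correlation of 0.211, those of 30 and 37 °C at 6 h with 0.154, of 24 and 37 °C at 1 h with 0.148 and of 24 and 30 °C at 6 h with 0.0702, so not every one was over 0.1. The labels do not say that a number marks a shared culture, so the libraries were not treated as paired. With the replicate block 2947 genes rose and 3793 fell, and no other count moved by over 1.5 times. With 2 libraries a group, differences near the limit of 1 depend on the test. Names reach few of the genes that fell, so the falling side is described mainly by counts.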

Other observations

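The study sorted genes into modules of common expression on these same libraries, so their direction is not independent. The yellow module held 563 genes, of which 354 rose at 6 h and none fell, with a median log2 fold change of 1.38. The turquoise module had 1436 genes in the listed part, of which 1155 rose and none fell, with a median of 1.82. Their medians at 1 h were 2.97 and 0.58.

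Of 6 named genes of DNA replication and repair 3 were up-regulated and 1 was down-regulated, against 13.8% and 17.5% of all genes tested. All 6 had been called up at 1 h. Pp3c14_21160, named after the partner of DNA ligase IV in the joining of broken ends, had 7.99 and 9.13 CPM at 24 °C and 27.9 and 27.9 CPM at 37 °C, a log2 fold change of 1.71 ± 0.24 (SE) with an edgeR adjusted p of 1.5e-05. The SMC family gene Pp3c12_10030, of a family that holds chromosomes together, had 52.9 and 53.0 CPM at 24 °C and 129 and 122 CPM at 37 °C, a log2 fold change of 1.25 ± 0.17 with an adjusted p of 1.2e-05. The chitinase gene Pp3c16_13440, of a family that acts on fungal walls, had 0.114 and 0 CPM at 24 °C and 5.48 and 2.76 CPM at 37 °C, 69.8-fold higher than the 1 read of the 24 °C group, with an exact 95% counting interval of 12.1 to 2798 and an adjusted p of 7.8e-06.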
